A study of Mus musculus with 12 samples.

Results

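Transcripts of 39 sarcomere and skeletal muscle genes were followed through spinal cord RNA of 12 mice. The genes were taken by symbol from a list of contractile, Z-disc, calcium-handling and energy genes of striated muscle, and all 39 were found among the 38924 genes in the files. Each library is the whole spinal cord of 1 mouse aged 1 week, on a background labelled B6J;CAST. There are 4 groups of 3 libraries, labelled by sex and by genotype (wt or GarsP278KY, written P278KY here). P278KY is a mutant allele of Gars, which encodes glycyl-tRNA synthetase, and the series title places it over a wild-type allele and the mice before disease onset. The wt libraries carry no mutant allele by their labels, and all groups share the strain background, age and tissue.

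A sarcomere is the repeating contractile unit of striated muscle. Thick filaments of myosin pull on thin filaments of actin, troponin and tropomyosin let calcium switch that pull on, and Z-discs anchor the thin filaments. Many of these proteins come in fast, slow and developmental forms encoded by separate genes, and several slow and developmental forms are also used in the heart. Neurons and glia have no sarcomeres. In bulk RNA, fewer muscle cells and less RNA per cell cannot be told apart.

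Spinal cord markers were present in all 12 libraries. The 12 markers of cord neurons and glia, from Snap25 to the myelin gene Mbp, summed to between 12550 and 20670 TPM (a level relative to transcript length and to the library's total). Expected counts totalled 27713981 to 43219891 per library. Sex marks went against the label in 2 wt libraries: the library labelled female wt 14 held 0.12 TPM of Xist and 18.1 TPM of the Y-linked gene Ddx3y, and the library labelled male wt 19 held 127 TPM of Xist and 0.01 TPM of Ddx3y. Both are called sex-discordant here. The genotype counts and median are given with and without them, and single-gene values include them unless stated. Replicates are separate mice.

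The control regions of 4 of the genes are shown first, and their part in the levels was not tested. Each line gives the 250 bases before the transcription start on GRCm38.p6 from RefSeq, read 5′ to 3′ on the gene's own strand. Capitals mark 4 motifs searched on both strands: the E-box form CAGCTG bound by myogenic factors, the CArG box bound by SRF, the MEF2 site, and CATTCC, bound by TEAD factors. The places are chr8:123894776-123895025 (minus strand) for Acta1, chr7:127211358-127211607 (plus) for Mylpf, chr11:67276874-67277123 (plus) for Myh8 and chr11:67237562-67237811 (plus) for Myh4. Acta1 and Mylpf are shown as the most abundant thin filament and light chain genes, and Myh8 and Myh4 as a pair of neighbouring myosins with unlike patterns.
Acta1: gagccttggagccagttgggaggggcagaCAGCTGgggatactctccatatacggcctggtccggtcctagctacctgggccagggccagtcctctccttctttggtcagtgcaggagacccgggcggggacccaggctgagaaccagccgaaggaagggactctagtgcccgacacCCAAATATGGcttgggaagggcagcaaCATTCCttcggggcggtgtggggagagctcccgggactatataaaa
Mylpf: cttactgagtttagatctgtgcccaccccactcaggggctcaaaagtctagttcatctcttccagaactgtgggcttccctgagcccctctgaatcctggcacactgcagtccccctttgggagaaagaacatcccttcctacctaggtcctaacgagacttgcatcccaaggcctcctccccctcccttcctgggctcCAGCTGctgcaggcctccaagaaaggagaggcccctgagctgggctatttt
Myh8: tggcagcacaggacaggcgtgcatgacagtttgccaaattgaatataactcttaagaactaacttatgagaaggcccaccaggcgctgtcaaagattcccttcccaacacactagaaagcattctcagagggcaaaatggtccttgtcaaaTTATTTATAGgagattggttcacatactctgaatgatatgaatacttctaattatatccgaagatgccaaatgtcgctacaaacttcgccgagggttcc
Myh4: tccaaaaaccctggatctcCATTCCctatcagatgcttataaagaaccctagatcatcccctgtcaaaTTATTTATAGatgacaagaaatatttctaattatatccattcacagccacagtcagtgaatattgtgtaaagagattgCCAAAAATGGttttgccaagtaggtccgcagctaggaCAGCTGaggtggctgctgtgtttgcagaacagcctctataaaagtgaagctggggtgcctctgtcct

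Of the 39 genes, 33 had a promoter entry. CAGCTG occurred in 15 of the 33 (45.5%), against 14.7% of 27025 genes with an entry, counting a gene when any of its listed promoters held the motif. The CArG box occurred in 5 (15.2% against 1.62%), the MEF2 site in 6 (18.2% against 3.42%) and CATTCC in 9 (27.3% against 14.4%). Myh4 was the 1 member with all 4 motifs, while Myh2, Myh3, Tnnc2, Tnnt1 and Ryr1 were among the members with none. A match describes these letters only.

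The 39 genes differed far more between mice than the cord markers did. Summed over the 39 genes, the level was 200.3 TPM in female wt 1, 60.4 TPM in female wt 2 and 135 TPM in the library labelled female wt 14. Of the males labelled wt, mice 6 and 9 had 77.4 and 124 TPM, and the library labelled male wt 19 had 2021 TPM. In P278KY it was 728, 3406 and 212 TPM in female mice 4, 7 and 10, and 5326, 1070 and 1783 TPM in male mice 3, 5 and 13. So 5 wt libraries lay at or below 200.3 TPM and 5 P278KY libraries at or above 728 TPM, while the library labelled male wt 19 lay among the P278KY libraries and female P278KY 10 lay near the wt level. Even in the highest library the genes made up 0.533% of all TPM, and in the lowest 0.00604%.

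**Figure D1:**
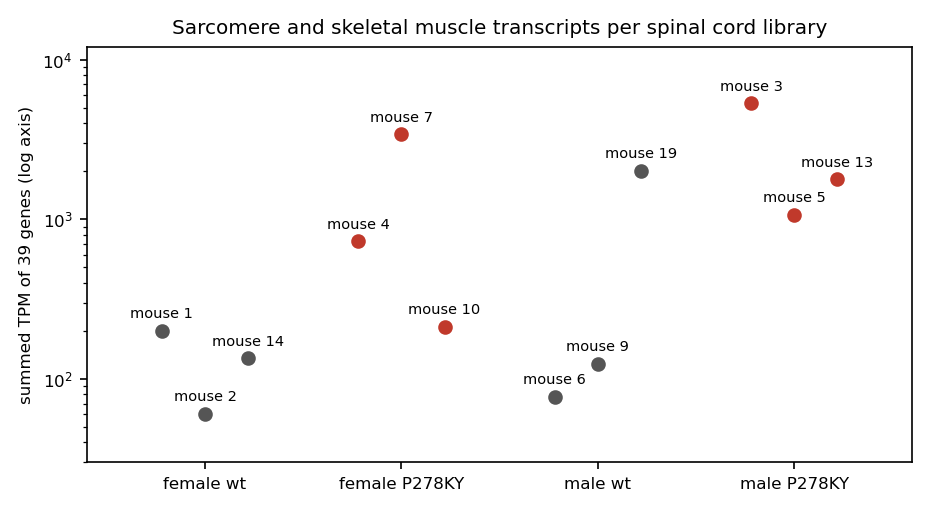
Summed TPM of the 39 genes (log axis) in each of the 12 libraries, by labelled group, with grey points for wt and red points for P278KY. The wt libraries span 60.4 to 2021 TPM and the P278KY libraries 212 to 5326 TPM, so the genotypes overlap.

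On the log2(TPM + 1) scale, wt libraries had a mean sum of 7.49 ± 1.82 and P278KY libraries one of 10.37 ± 1.67 (SD over 6 libraries), a difference of 2.88. Without the library labelled male wt 19 the difference was 3.58. The sum describes these genes and was not tested.

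Single genes followed the same order of libraries. Of the 39 genes, 29 were highest in male P278KY 3 and 9 in female P278KY 7, and Myh4 was highest in female wt 1. The lowest library was female wt 2 for 22 genes and male wt 6 for 11. Among wt, the library labelled male wt 19 was the highest for 37 genes, and among P278KY, female P278KY 10 was the lowest for 36. Of the 38 genes above 0 TPM in all libraries, 34 ranged over more than 10-fold, with a median of 82.8-fold and a largest range of 978-fold for Myh1.

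**Figure D2:**
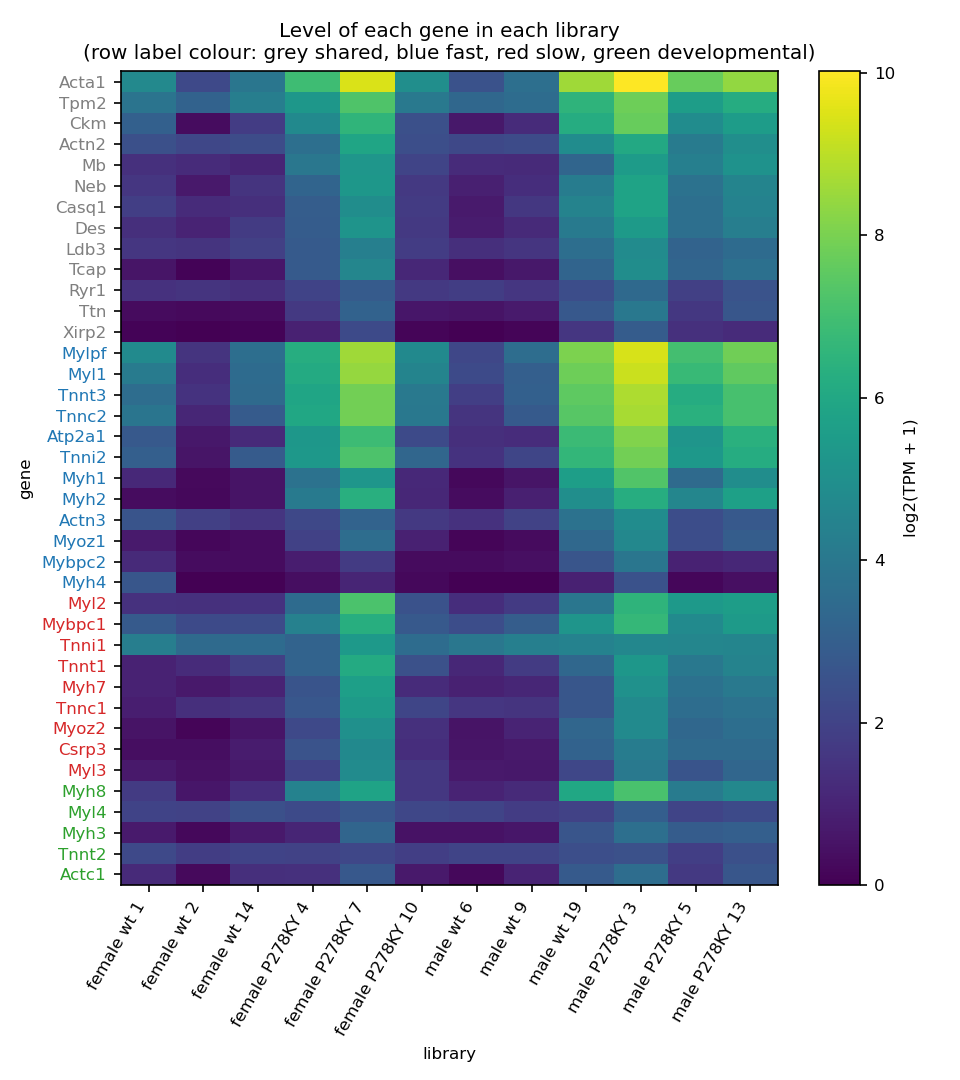
Level of each of the 39 genes (rows, log2(TPM + 1)) in each of the 12 libraries (columns), with row labels coloured by form. Most rows are brightest in male P278KY 3 and female P278KY 7, whereas the rows of Tnnt2 and Myl4 vary least across the columns.

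Of the 39 genes, the highest mean level was that of Acta1, a thin filament gene. Acta1, the actin of adult skeletal muscle (ENSMUSG00000031972, chromosome 8, 123891769 to 123894751, minus strand in GENCODE M21 on GRCm38), stood at 25.1 and 3.67 TPM in female wt 1 and 2, at 14.3 TPM in the library labelled female wt 14, at 4.74 and 11.6 TPM in male wt 6 and 9, and at 385 TPM in the one labelled male wt 19. In P278KY it stood at 118, 703 and 30.3 TPM in females 4, 7 and 10 and at 1039, 204 and 335 TPM in males 3, 5 and 13. All 6 P278KY libraries lay above 5 of the wt libraries, and 2 of them above all 6. Its fitted change was 3.12 ± 1.33 on the log2 scale (SE; edgeR adjusted p = 1.00), so no difference was called. It was 2.17 without female P278KY 7 and 5.05 without the library labelled male wt 19. Actc1, the actin of heart and of developing skeletal muscle, was scarce, at 0.15 to 6.14 TPM in wt and 0.62 to 10.9 TPM in P278KY. Tpm2, a tropomyosin that lies along the actin filament, ranged from 7.93 to 90.1 TPM in wt and from 15.4 to 221 TPM in P278KY.

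The genes of 5 sarcomeric myosin heavy chains, the motors of the thick filament, lie in a row on chromosome 11 in the order Myh3, Myh2, Myh1, Myh4 and Myh8, all on the plus strand between 67078300 and 67308634. Myh7, the slow and cardiac form, lies on chromosome 14 at 54970684 to 54994626. Myh8, the perinatal form, was the most abundant by mean TPM: its level had a median of 1.38 TPM in wt (0.53 to 61.0) and 22.6 TPM in P278KY (2.09 to 142). The fast adult form Myh1 had a median of 0.48 TPM in wt (0.16 to 48.0) and 20.7 TPM in P278KY (1.25 to 156). Myh2, the fast oxidative form, had medians of 0.355 TPM (0.15 to 29.6) and 36.9 TPM (1.16 to 78.1). The highest wt value of all 3 came from the library labelled male wt 19, and the genotypes overlapped in each.

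Embryonic Myh3 was lower, at 0.17 to 5.24 TPM in wt and 0.42 to 11.7 TPM in P278KY. Myh7 had a median of 0.98 TPM in wt (0.60 to 5.43) and 13.9 TPM in P278KY (1.36 to 48.9), and all 6 P278KY libraries lay above 5 of the wt libraries. The fitted log2 fold changes were 3.69 ± 0.94 for Myh7, 4.12 ± 1.60 for Myh2, 3.21 ± 1.52 for Myh1, 2.82 ± 1.38 for Myh8 and 2.43 ± 0.89 for Myh3 (SE; edgeR adjusted p = 1.00 for each). None passed the threshold of 0.05.

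Myh4, the fastest form and typical of adult limb muscle, broke the pattern. Its expected count was 616 in female wt 1. Female wt 2 had 2.07, male wt 6 had 0, male wt 9 had 1.01, and the libraries labelled female wt 14 and male wt 19 had 4 and 136. In P278KY it was 26.5, 116 and 16.1 in females 4, 7 and 10 and 550 in male 3, 12.3 in male 5 and 36.5 in male 13. In female wt 1 it exceeded Myh1 (139 expected counts), Myh2 (24.9) and Myh8 (263), whereas in male P278KY 3 it stood beside 17222 counts of Myh1. The log2 fold change of Myh4 was 0.34 ± 1.99 (SE; edgeR adjusted p = 1.00), and it became 2.99 without female wt 1 and -1.25 without male P278KY 3.

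The make-up of the heavy chains was taken as a share of the TPM of all 6. Myh4 made up 50.2% in female wt 1 and at most 2.33% in any other library. Developmental chains (Myh3 and Myh8) made up 43.4 ± 9.01% of the wt total and 33.5 ± 5.79% of the P278KY total (SD over 6 libraries), with overlapping ranges of 27.5 to 52.4% and 25.1 to 39.04%. With at least 1000 counts behind each share, which leaves 2 wt and 5 P278KY libraries, the difference shrank from -9.84 to -3.37 percentage points. Myh7 made up 36.4% in female wt 2, 32.7% in male wt 6, 26.2% in male wt 9 and 24.6% in the library labelled female wt 14, but 8.77% in female wt 1 and 3.62% in the library labelled male wt 19. In P278KY it made up 8.91, 21.2 and 21.2% in females 4, 7 and 10 and 7.70, 17.7 and 12.2% in males 3, 5 and 13. The 4 highest shares were thus in wt libraries with low sums. The libraries with the highest sums of the 39 genes, male P278KY 3 and female P278KY 7, lay far apart in this share. Shares rest on 190 counts in female wt 2 and 48120 in male P278KY 3, and depth limits the lowest libraries.

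**Figure D3:**
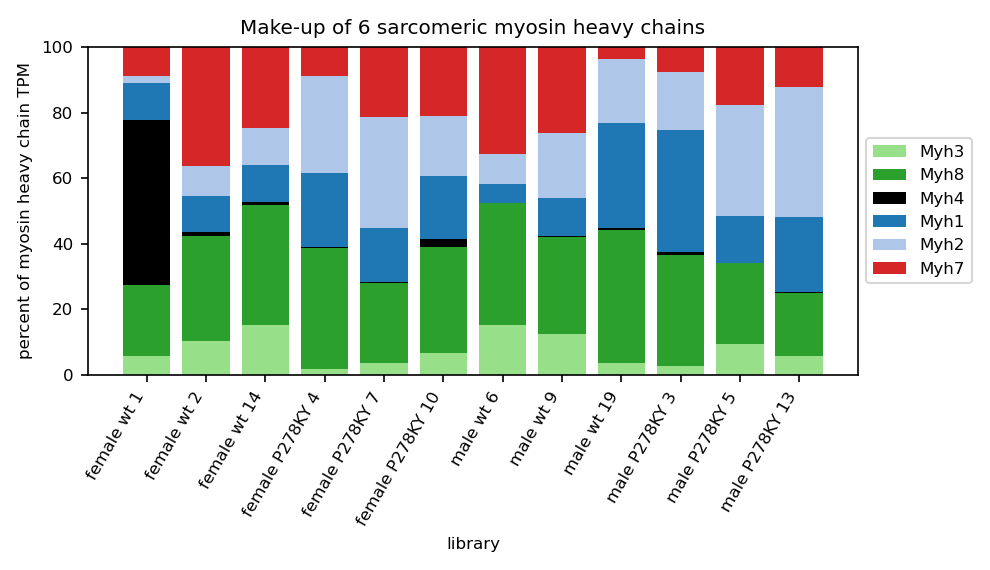
Share of each of 6 sarcomeric myosin heavy chain genes in their summed TPM, as stacked bars for each library. Myh4 (black) fills 50.2% of the bar of female wt 1 and at most 2.33% elsewhere, and Myh7 (red) is thinnest in the library labelled male wt 19 (3.62%).

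Identical stretches could move counts between these neighbours. In GENCODE M21 transcripts, 15.8% of the 75-base stretches of Myh1 also occur in another gene, mostly Myh2, as do 13.9% for Myh2, 9.68% for Myh4, 7.04% for Myh8 and 10.6% for Myh7, the last all shared with Myh6. The shares of Myh3 and Acta1 were 1.84% and 0.394%, and Actc1 shared none. Each heavy chain thus has most of its sequence to itself, and how the counting split the shared stretches was not tested.

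Myosin light chains, which stiffen and regulate the myosin lever, showed the fast and slow forms side by side. Mylpf, the fast regulatory chain, had a median of 11.2 TPM in wt (1.87 to 262) and 179 TPM in P278KY (26.1 to 682), with a log2 fold change of 2.76 ± 1.21 (SE; edgeR adjusted p = 1.00). Myl1, the fast essential chain, ranged from 1.47 to 226 TPM in wt and from 21.7 to 591 TPM in P278KY. Myl2, the slow and ventricular regulatory chain, had a median of 1.72 TPM in wt (1.45 to 14.4) and 44.0 TPM in P278KY (4.79 to 145), and its log2 fold change of 4.23 ± 1.07 was the largest of the 39 genes. Myl3, its essential partner, had 3.51 ± 0.87, and neither was called (SE; edgeR adjusted p = 1.00 for both). Myl4, the embryonic and atrial chain, stayed between 2.42 and 6.95 TPM in all 12 libraries.

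The slow regulatory chain took unlike shares of the pair of Myl2 and Mylpf. It was 27.2% in female P278KY 7, 24.0% in male P278KY 5 and 17.1% in male P278KY 13, against 11.7% in male P278KY 3, 12.3% in female P278KY 4 and 5.22% in the library labelled male wt 19. It was 15.5% in female P278KY 10. Of the wt libraries with at least 100 counts, female wt 1 had 5.80%, male wt 9 had 17.2% and the library labelled female wt 14 had 13.5%, so the genotypes overlapped.

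Troponin, the calcium switch, has 3 subunits with a fast and a slow gene each, plus cardiac Tnnt2. Tnnt3, the fast troponin T, was the most abundant by the mean of all 12 libraries, with a median of 8.72 TPM in wt (1.76 to 183) and 105 TPM in P278KY (15.4 to 443) and a log2 fold change of 2.72 ± 1.22 (SE; edgeR adjusted p = 1.00). The fast inhibitory and calcium-binding subunits Tnni2 (0.47 to 97.7 TPM in wt, 8.86 to 237 TPM in P278KY) and Tnnc2 (1.11 to 170 and 14.9 to 419 TPM) were, like Tnnt3, lowest in female wt 2 and highest in male P278KY 3. Slow Tnnt1 had a median of 1.87 TPM in wt (0.94 to 9.19) and 18.2 TPM in P278KY (4.57 to 68.6), with 3.51 ± 0.90 (edgeR adjusted p = 1.00). Tnnc1, the slow and cardiac calcium-binding subunit, had 1.84 TPM (0.81 to 5.45) and 11.9 TPM (3.30 to 43.5), with 2.99 ± 0.68 (edgeR adjusted p = 0.799).

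Slow Tnni1 and cardiac Tnnt2 behaved otherwise. Tnni1 stood at 10.1 to 20.8 TPM in wt and 8.14 to 41.2 TPM in P278KY, so it stayed above 10 TPM in wt libraries where Acta1 was under 5 TPM. Tnnt2 varied by 1.79-fold over the 12 libraries (2.56 to 4.57 TPM), the smallest range of the 38 genes above 0 throughout. Slow troponins, Tnni1 included, made up 49.5 ± 26.8% of troponin TPM over the 6 wt libraries and 17.6 ± 8.55% over the 6 P278KY libraries (SD). The Tnni1 share of Tnni1 and Tnni2 was 70.2% in wt and 27.3% in P278KY on average. With at least 100 counts the other pairs did not go that way. Tnnt1 made up 14.5% of its pair in 4 wt libraries and 16.0% in P278KY. Tnnc1 made up 4.32% in 2 wt libraries and 11.4% in P278KY. The wt libraries under that minimum lay above all P278KY libraries in both pairs, on few counts. Tnnt1 had 43.6% in female wt 2 and 30.3% in male wt 6. Tnnc1 had 58.3% and 51.6% in these, 22.8% in male wt 9 and 22.6% in the library labelled female wt 14. The contrast between pairs thus depends on the minimum. With at least 1000 counts behind the slow share, 1 wt library was left, the one labelled male wt 19, and the difference of -31.9 percentage points turned to 7.46.

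The genes of titin and nebulin, giant proteins of the sarcomere, overlapped between genotypes. Ttn ranged from 0.18 to 5.73 TPM in wt and from 0.53 to 15.1 TPM in P278KY, and Neb from 0.60 to 17.6 and from 2.13 to 55.9 TPM. Mybpc1, the slow myosin-binding protein C, led this role with a median of 5.19 TPM in wt (3.78 to 36.4) and 34.7 TPM in P278KY (6.02 to 101), a log2 fold change of 2.54 ± 0.85 (SE; edgeR adjusted p = 1.00). Its fast counterpart Mybpc2 was scarcer, and its values were 1.26 TPM in female wt 1, 0.34 TPM or less in 4 other wt libraries and 5.19 TPM in the library labelled male wt 19. Female wt 1 was thus above 4 of the other 5 wt libraries for this fast gene. Actn3, the fast alpha-actinin, was likewise 5.16 TPM in female wt 1, above 3.51 TPM in female P278KY 4, whose summed level of the 39 genes was higher.

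Among Z-disc genes, Actn2, the alpha-actinin that cross-links thin filaments, was the most abundant, at 3.34 to 28.2 TPM in wt (median 3.99) and 4.36 to 65.4 TPM in P278KY (median 23.7), with a log2 fold change of 2.15 ± 0.79 (SE; edgeR adjusted p = 1.00). The titin cap Tcap ranged from 0.07 to 8.39 TPM in wt and from 1.14 to 29.3 TPM in P278KY. Csrp3, a muscle LIM protein, ranged from 0.29 to 7.80 and from 1.46 to 26.0 TPM, and Myoz2, the slow calsarcin, from 0.09 to 8.92 and from 1.61 to 31.9 TPM. The intermediate filament gene Des, which is active in mural cells too, ranged from 0.72 to 16.5 and from 2.18 to 43.3 TPM. Ldb3, Myoz1 and Xirp2 were lowest in male wt 6 and highest in male P278KY 3.

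Of the calcium genes, Atp2a1, the fast calcium pump of the sarcoplasmic reticulum, had a median of 1.47 TPM in wt (0.58 to 113) and 59.4 TPM in P278KY (3.78 to 281), with 2.81 ± 1.41 (SE; edgeR adjusted p = 1.00). Casq1, which stores calcium there, ranged from 0.67 to 21.5 and from 2.32 to 54.6 TPM. Ryr1, the release channel, varied least, from 1.55 to 4.19 and from 2.13 to 9.83 TPM. Of the energy genes, Ckm, the muscle creatine kinase, had a median of 1.88 TPM in wt (0.26 to 73.2) and 37.1 TPM in P278KY (4.41 to 208), with 2.70 ± 1.31 (SE; edgeR adjusted p = 1.00). Mb, the oxygen carrier myoglobin, had 1.36 TPM (1.05 to 8.65) and 26.0 TPM (3.12 to 44.8), and its log2 fold change of 3.45 ± 0.70 had the smallest p of the 39 genes (edgeR adjusted p = 0.643).

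In the comparison of genotypes, 0 of the 39 genes were called by edgeR, where 0.00556% of 17995 genes were. All 39 passed the filter on low counts, and all 39 had a higher fitted level in P278KY, against 46.9% of all genes tested. The median log2 fold change was 2.76 (0.09 for Tnnt2 to 4.23 for Myl2), against -0.01 over all genes, and 35 members had a fitted fold of 2 or more, against 1.21%. At an unadjusted p under 0.05 there were 27, all higher, against 2.4% of all genes. The members share their libraries and moved together, so these counts are not independent. In TPM, 0 of 39 had all 6 P278KY libraries above all 6 wt, against 0.0667% of all genes. Without the library labelled male wt 19, an alternative chosen after seeing the data, 19 of 39 did, against 0.411%.

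DESeq2 called 5 of the 35 members to which it gave a p, all higher, against 0.185% of all genes. They were Mb (adjusted p = 0.000136), Tnnc1 (0.000181), Myh7 (0.00196), Tnnt1 (0.00699) and Myl3 (0.00778). Tnnc1, Myh7, Tnnt1 and Myl3 are slow forms, and myoglobin is richest in slow and cardiac muscle. Without both sex-discordant wt libraries, a fit chosen after seeing the data, DESeq2 called 31 of 36 members, all higher, against 1.3% of all genes. There edgeR called 0 members and 0 of 18168 genes. It gave 34 members an unadjusted p under 0.05, all higher, against 3.87% of all genes. With all 12 libraries, the genes classed as developmental had log2 fold changes of 2.82 (Myh8), 2.43 (Myh3), 1.46 (Actc1), 0.59 (Myl4) and 0.09 (Tnnt2). By form, in the same fit, the median was 3.45 for the 9 slow genes, 2.74 for the 12 fast, 2.70 for the 13 shared and 1.46 for the 5 developmental genes. Without both sex-discordant libraries these medians were 4.60, 4.76, 4.25 and 3.10, with the fast genes highest, and the median of all 39 was 4.58. The difference between forms was not tested. Single folds moved too: for the 17 genes other than Myh4 whose folds are given, they ran from 2.99 (Actn2) to 6.72 (Myh2) without the library labelled male wt 19 and from 1.41 (Actn2) to 3.26 (Myh2) without female P278KY 7.

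**Figure D4:**
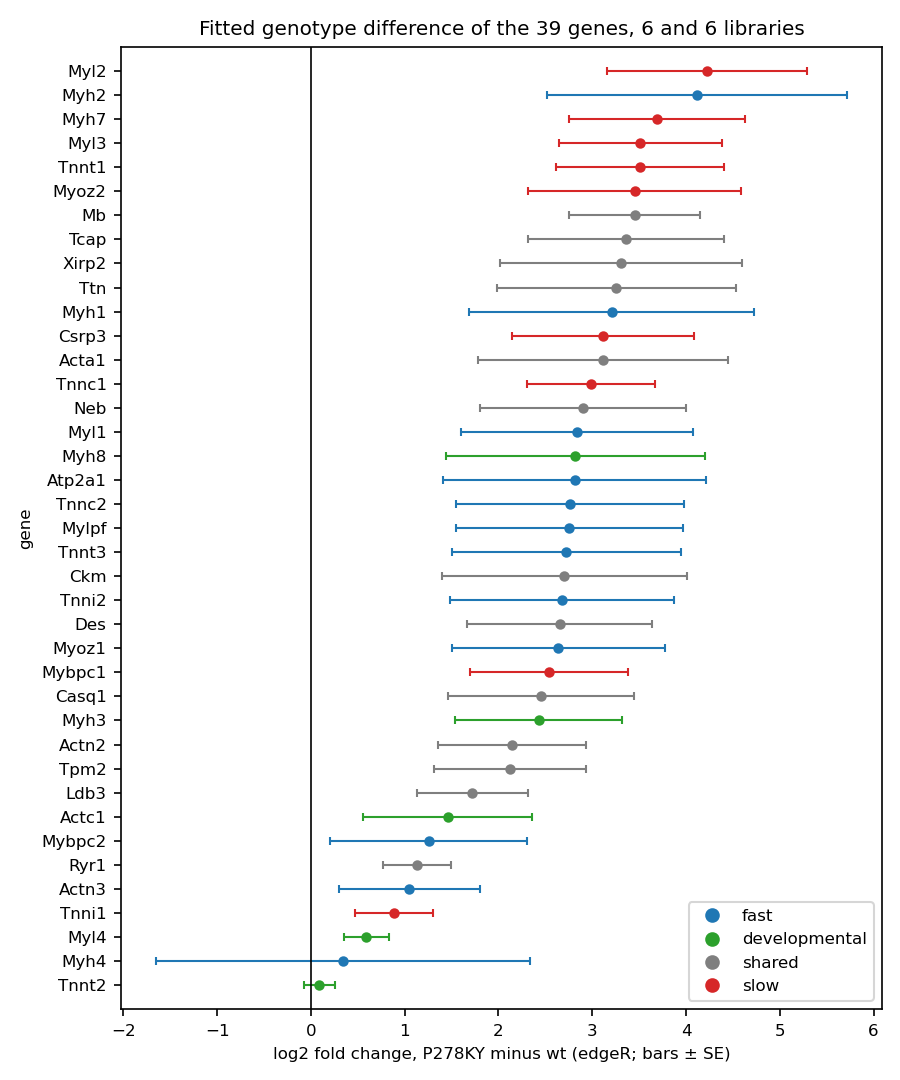
Fitted log2 fold change of each of the 39 genes, P278KY minus wt, over 6 and 6 libraries, with bars of ± SE from edgeR and points coloured by form. All points lie above 0, from 0.09 (Tnnt2) to 4.23 (Myl2), with slow Myl2 and fast Myh2 the highest and slow Tnni1 among the lowest.

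Within labelled females the median log2 fold change of the members was 3.81, with 37 of 39 higher, and within labelled males 1.90, with 39 of 39 higher. edgeR called 0 members in either sex, where it called 0% of all genes, and gave 16 members in females and 7 in males an unadjusted p under 0.05, all higher (5.81% and 2.26% of all genes were higher at that level). DESeq2 called 9 in females, against 1.68% of all genes, and 0 in males, against 0.19%. The 9 were Myh2, Myh7, Myl3, Tnnt1, Tnnc1, Mb, Csrp3, Myoz2 and Tcap. The interaction of genotype and sex had 0 called members by edgeR and 0 by DESeq2, where 0% and 1.73% of all genes were called. At an unadjusted p under 0.05 there were 0 members in edgeR and 1 in DESeq2, where 10.9% and 11.4% of all genes were. Each within-sex comparison holds 1 wt library whose sex marks go against its label. With both left out, edgeR again called 0 members in either sex, where it called 11 of 18168 genes in females and 4 in males. The median of the members was 3.79 in females and 4.81 in males. DESeq2 then called 10 members in females, against 1.21% of all genes, and 28 in males, against 1.46%. The median of the interaction, females minus males, turned from 1.74 to -1.10, with 0 members called by either tool. Of all genes, edgeR then called 5 of 18168 for the interaction and DESeq2 345 of 18083.

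Other muscle genes, from lists chosen with earlier results known, were tested in the same fit. In that fit 46.9% of all 17995 genes were higher in P278KY and 0.00556% were called, so 0 called does not set these lists apart. Of 18 tested genes of further sarcomere parts, 18 were higher in P278KY as fitted (median log2 fold change 2.16), with 0 called and Myom3 (2.16 ± 0.69) and Mylk4 (1.24 ± 0.41) at the smallest p. In excitation and calcium release, 12 of 13 were higher (median 1.33, 0 called), led by the coupling protein gene Stac3 (0.93 ± 0.26) and by Sln, a brake on the calcium pump (3.62 ± 1.00). In muscle energy enzymes 10 of 10 were higher (median 1.55, 0 called), led by Cox6a2 (2.60 ± 0.94) and Ckmt2 (3.41 ± 1.29). Of 4 tested myogenic regulators, 4 were higher (median 2.03, 0 called), led by the differentiation factor Myog (2.08 ± 0.77) and Myf6 (2.15 ± 0.87). Of 6 tested genes of the muscle endplate, 4 were higher and 2 lower (median 0.45, 0 called), led by the acetylcholine receptor subunits Chrnb1 (0.62 ± 0.25) and Chrna1 (0.60 ± 0.25; all values log2 ± SE).

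Heart and smooth muscle genes had smaller ranges. The 8 heart genes summed to at most 11.4 TPM in wt (lowest 5.32) and at most 8.15 TPM in P278KY (median 6.03). The atrial light chain gene Myl7 was listed at 0 TPM in 8 of the 12 libraries and at 1.88 TPM or less in the others, while Myh6 stayed between 0.43 and 3.90 TPM. The 8 smooth muscle genes summed to 34.5 to 90.8 TPM in wt and 55.1 to 90.4 TPM in P278KY, with medians of 55.8 and 59.0 TPM. In both lists 0 genes were called, where 0.00556% of 17995 genes were.

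Markers of other tissues did not all follow the order of libraries seen for the 39 genes. Male P278KY 3, highest for the 39 genes, also had the highest sum of 6 tendon genes (64.0 TPM, with Tnmd at 21.2 TPM). Single tendon genes were split: Fmod, Scx and Mkx had their highest level in a wt library, and Tnmd, Thbs4 and Comp in a P278KY library. Male P278KY 3 had the highest sum of 6 fat genes too (211 TPM). Most of that fat sum was Fabp4 (185 TPM). Without Fabp4 the fat sum was highest in the library labelled female wt 14 (57.1 TPM), and male P278KY 3 had 25.9 TPM. The library labelled male wt 19 had 122 TPM of fat genes, 34.8 TPM of it without Fabp4. It also had the highest wt level of Tnmd (4.89 TPM). The library labelled female wt 14 was highest for connective tissue (1662 TPM against 383 to 967 TPM elsewhere) and for sensory ganglion neurons (128 TPM against 1.73 to 4.93 TPM), yet its sum of the 39 genes was 135 TPM. The median sums of the fat, cartilage and bone, connective tissue, tendon and red cell lists were higher in P278KY than in wt, with overlapping ranges. Fat genes had a median sum of 25.3 TPM in wt (8.66 to 167) and 62.1 TPM in P278KY (24.1 to 211). Without Fabp4 these medians were 10.9 and 13.6 TPM. Of 4 tested fat genes, 1 was higher as fitted and 3 were lower, against 46.9% of all genes higher. Cartilage and bone genes had 36.0 TPM (20.6 to 142) and 58.8 TPM (26.7 to 144). Connective tissue genes had 531 and 896 TPM, and tendon genes 25.8 and 40.1 TPM. The highest wt sums of fat and connective tissue came from the library labelled female wt 14. Of 6 Schwann cell genes, 5 were lower as fitted (median log2 fold change -0.85), against 9561 of 17995 genes tested. Of the 6, 0 were called, against 0.00556% of all genes. These 6 Schwann cell genes summed to 312 to 475 TPM in wt and 236 to 539 TPM in P278KY, lowest in male P278KY 3. Mal, which oligodendrocytes make too, was 217 of 236 TPM in male P278KY 3 and 206 of 423 TPM in male wt 6. Red cell genes summed to 3836 to 17500 TPM in wt (median 9047) and 7320 to 15250 TPM in P278KY (median 11590). The part of these tissues in the genotype difference of the muscle genes was not tested.

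**Figure D5:**
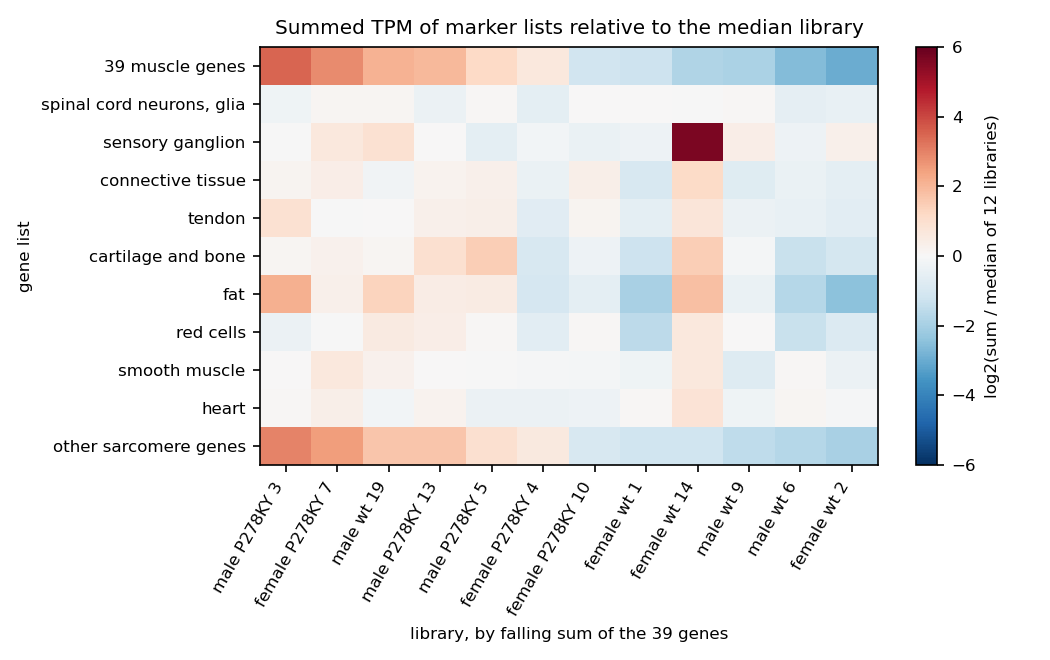
Summed TPM of each marker list in each library, as log2 of the sum over its median in 12 libraries, with libraries ordered by falling sum of the 39 genes. Other sarcomere genes fall from left to right like the 39 genes, except that the library labelled female wt 14 stands just above female wt 1, whereas sensory ganglion genes peak in the library labelled female wt 14.

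Genes outside the list were ranked by how closely their levels ran with the mean of the members, with predicted genes passed over. The measure was the correlation of log2 CPM (counts relative to the library total) over the 12 libraries. The 10 most alike were Nrap, Trdn, Klhl41, Atp1b4, Klhl31, Itgb1bp2, Pgam2, Cox6a2, Ampd1 and Myom2. Of these, Atp1b4, Klhl31 and Itgb1bp2 were on none of the lists. Atp1b4 ranged from 0.05 to 20.5 TPM, Klhl31 from 0.05 to 2.48 TPM and Itgb1bp2 from 0.52 to 23.2 TPM. The points share their libraries and depth, and the likeness is a description.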

How the data were processed

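RNA-seq of whole spinal cord was deposited as 1 gene table per mouse. The submitters' processing notes list RSEM 1.2.12 and Bowtie2 2.2.0. Build, annotation and strand setting: not given in the sources used here. The deposited tables hold, per the file headers, an expected count per gene (RSEM's estimate of its fragments) and a TPM, which the authors' pipeline sets relative to length and total. Levels here are those TPM values. FPKM was not used.

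Expected counts were rounded, filtered with filterByExpr over the 4 groups (17995 genes left), scaled with TMM factors and tested with edgeR 4.0.16 quasi-likelihood in R 4.3.3, with labelled sex as a term, or with 1 mean per group for within-sex effects and the interaction. P-values were adjusted by Benjamini-Hochberg over all genes, at a threshold of 0.05. SE is the log2 fold change over the square root of F. The procedure was tested on simulated data.

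The members and lists were chosen with earlier results of these data known. Of 134 gene symbols on 15 other lists, 131 were found; 1 gene is not reported here. Shares used libraries with at least 100 counts. Genes with values in the text were, by rule, the most abundant member of each of 8 roles, the 6 heavy chains and the 5 members with the smallest p; for other lists the 2 with the smallest p; and the 10 genes most like the members' mean log2 CPM (prior count 2). Predicted genes were passed over in that ranking by likeness. Other members are given by range. Actn3 and Mybpc2 in female wt 1 and genes of other tissues were picked with their values in view. Alternatives were RLE factors, library totals, 2 other filters, DESeq2 1.42.0, limma 3.58.1 trend on log2(TPM + 1), no sex term, other pseudocounts and count minimums, and each library left out; DESeq2 without both sex-discordant libraries was added after seeing the data. Total counts of 27713981 to 43219891 per library leave the scarcest values, such as Myh4 in most wt libraries, at a few counts.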

Additional observations from a re-analysis of the deposited data

Results flagged for a closer look

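Within each genotype, a library was singled out when its gap to the nearest other library, over the whole range of the 6, passed Dixon's critical value of 0.625 on the log2(TPM + 1) scale, or on percentages for shares; chance gives about 1 in 20 groups. The library labelled male wt 19 stood above the other 5 wt libraries in the summed members (2021 TPM) and in 23 of the 39 genes, all of which were screened. Among heavy chains these were Myh1 (48.0 TPM), Myh2 (29.6 TPM), Myh3 (5.24 TPM), Myh7 (5.43 TPM) and Myh8 (61.0 TPM). Among other filament genes they were Tnnt3 (183 TPM), Tpm2 (90.1 TPM), Mybpc1 (36.4 TPM), Neb (17.6 TPM), Myl2 (14.4 TPM), Ttn (5.73 TPM) and Myl3 (3.42 TPM). At the Z-disc they were Actn2 (28.2 TPM), Des (16.5 TPM), Ldb3 (11.2 TPM), Myoz1 (9.54 TPM), Myoz2 (8.92 TPM), Tcap (8.39 TPM), Csrp3 (7.80 TPM) and Xirp2 (1.98 TPM), and the others were Atp2a1 (113 TPM), Casq1 (21.5 TPM) and Mb (8.65 TPM). Its share of Myh1 among heavy chains (32.0%) also stood apart. These genes move together, so they are not separate observations.

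Female wt 1 stood apart from the other wt libraries in Myh4, both in level (5.50 TPM) and in share of heavy chain TPM (50.2%). Male P278KY 3 stood apart from the other P278KY libraries in Myh4 (4.80 TPM) and in the share of Myh1 (37.1%).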

How the results depend on the processing

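No paired analysis was run, because the labels used here name no litter or pair of mice. edgeR called 0 members for genotype under RLE factors, library totals, no filter, a filter of CPM above 1 in 6 libraries (38 members tested), limma-trend in its place, no sex term, and each library left out. The main fit called only 0.00556% of 17995 genes, and the shares of all genes under these alternatives are not given here. DESeq2 called 5 for genotype and 9 within labelled females, and without both sex-discordant libraries 31 for genotype, 10 within labelled females and 28 within labelled males; the cause was not tested. Between 38 and 39 members were higher with 1 library left out. The median log2 fold change of the members ranged from 2.04 to 4.42 with 1 library left out, the latter without the library labelled male wt 19, and was 4.58 without both sex-discordant libraries. The log2 fold change of Myh4 ranged from -1.25 to 2.99 (without female wt 1) and reversed to -0.31 without male wt 6, to -0.30 without male wt 9 and to -1.25 without male P278KY 3; the cause was not tested. The log2 difference of summed TPM ranged from 2.48 to 3.58 with 1 library left out. The difference in the developmental share of myosin ranged from -13.0 to -8.05 percentage points and that in the slow share of troponin from -40.3 to -25.8, but the latter was 7.46 with at least 1000 counts, which leaves 1 wt library. Low counts limit the myosin and troponin shares of female wt 2 and male wt 6 most.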
